A study of Mus musculus with 6 samples.

Results

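Polycomb group proteins keep developmental and cell cycle genes silent through 2 chromatin complexes. Polycomb repressive complex 1 (PRC1) places ubiquitin on histone H2A and compacts chromatin, and complex 2 (PRC2) methylates histone H3 at the lysine that marks silent genes. In blood stem and progenitor cells they are known for sustaining self-renewal and for repressing cell cycle inhibitors. The 10 genes described here encode the polyhomeotic subunits of PRC1 (Phc1, Phc2, Phc3), its ubiquitin ligases (Ring1, Rnf2), their partner Bmi1, and the PRC2 core, namely the methyltransferases Ezh1 and Ezh2 with Eed and Suz12. They were chosen by gene symbol, with the difference between the genotypes already known for some of them. All 10 were found among the 56748 genes listed, and all 10 passed the filter of a mean of at least 1 normalized read that left 17114 genes for testing.

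Ribosome profiling counts the short mRNA fragments, here 24 to 36 nt, that a translating ribosome shields from nuclease. Footprints were read in mouse Lin-c-Kit+ cells, which the labels call hematopoietic stem cells, 12 days after 4.5 Gy of irradiation. The groups were wild type (WT, 3 libraries) and Mov10 knockout (3 libraries), both irradiated. The sources used here do not give age, strain, the design of the knockout allele or any pooling, and they do not say that the replicates are separate animals. Spread and p-values may therefore be technical. Footprints follow the amount of an mRNA as well as its translation, mRNA was not analysed here, and in bulk cells fewer cells of a type and less RNA per cell cannot be told apart.

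WT libraries held 2260348 to 2499634 reads and knockout libraries 1118345 to 1352517, so 1 read was worth 0.614 to 0.681 normalized reads in WT and 1.34 to 1.62 in the knockout. Mov10 itself, the RNA helicase named as deleted, stood at 107 ± 3.13 in WT and 62.1 ± 23.4 in the knockout (mean ± SD, n = 3 each), with 89.0 in knockout replicate 2. Its log2 difference of -0.84 did not pass (limma adjusted p = 0.0598). It passed as lower with TMM scaling (-0.93, limma adjusted p = 0.0429), library totals (-1.06, 0.0248), voom (-0.93, 0.0252), a mean of at least 50 (0.033) and without knockout replicate 2 (-1.12, 0.00692), and in the other alternatives its adjusted p lay between 0.0555 and 0.205. Of the 10 markers of the labelled cell type 1 passed, Myb, higher at 1935 ± 30.4 in WT and 2481 ± 230 in the knockout. Of all genes tested 21.2% passed, 10.3% as higher and 10.9% as lower. Kit, the receptor used in the sort, was at 1099 ± 15.8 normalized reads in WT, against 1122 ± 35.7. Flt3 was lower without overlap (208 ± 4.32 in WT, 158 ± 29.8 in the knockout) and did not pass. The stem cell markers Procr (means of 1.30 and 0.93) and Ly6a (13.4 and 16.6) had few reads. Other lineages were present and moved with genotype: 8 of 10 erythroid markers passed as higher (summed level 3464 to 3638 in WT, 5677 to 5788 in the knockout), and 6 of 10 B lineage markers (311 to 332, against 853 to 1082). Every marker of both lists had reads, but Hbb-bs, a globin gene, was near 0 (means of 4.84 and 0.89). Alas2 ran the other way, at 53.7 ± 1.07 in WT and 31.6 ± 8.06 in the knockout without overlap, and did not pass. In the B list Cd79b (36.9 ± 7.27 in WT, 23.9 ± 6.92 in the knockout), Vpreb1, Ebf1 and Ms4a1 did not pass. The erythroid count was 4 without WT replicate 1, 2 or 3, and 4 with 1 lower under library totals. Of the neutrophil markers 4 of 10 passed as higher and 4 as lower. Of the monocyte markers 2 of 8 passed as lower, with a summed level of 2098 to 2290 in WT and 1639 to 1786 in the knockout. The part of these shifts in the values of the Polycomb genes was not tested.

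Phc3 stood apart from the rest of the group. The fit placed 2 of the 10 members past the threshold (limma, Benjamini-Hochberg adjusted p under 0.05 over all genes), both higher in the knockout, Phc3 by 8.20-fold and Suz12 by 1.52-fold, and 8 did not pass. Over all genes tested 21.2% passed, 10.3% as higher and 10.9% as lower. With edgeR 3 members passed as higher, where 29.5% of the genes it tested passed, and with DESeq2 2, where 22.0% passed. In 4 of 10 members the genotypes did not overlap, 3 higher (Phc3, Suz12, Ezh1) and 1 lower (Rnf2), where 39.8% of all genes did not overlap, 16.9% higher and 22.9% lower. The median log2 difference was 0.036 over the 10 members and -0.17 over all genes tested. Because the contrast between genotypes was used in choosing the members, these counts are a description and no p is given for a member. Each statement below that a member passed or did not pass is likewise a description.

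**Figure D1:**
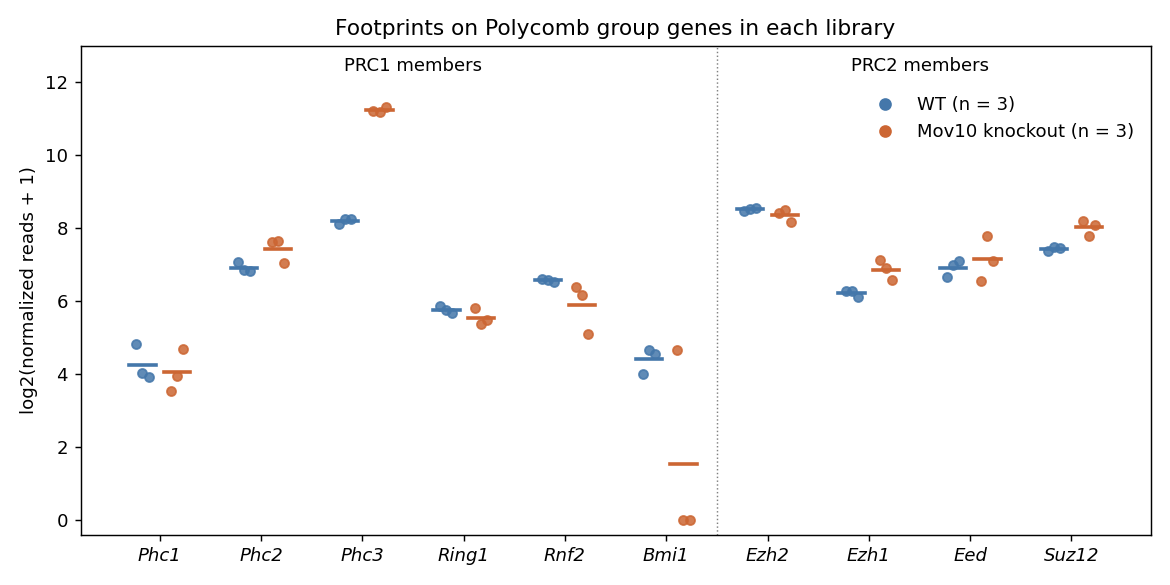
Footprint level of each of the 10 members in each of the 6 libraries, as log2(normalized reads + 1) on the vertical axis, with WT in blue, Mov10 knockout in orange and bars at the group means. Phc3 lies far higher in all knockout libraries, Bmi1 has no read in 2 of them, and most other members lie close together.

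Phc3 encodes a polyhomeotic subunit, whose SAM domain lets PRC1 complexes join into larger assemblies. Phc3 (chromosome 3, 30953520 to 31023564, minus strand, GRCm39) had 276, 307 and 302 normalized reads in the WT libraries and 2358, 2345 and 2548 in the knockout libraries. The lowest knockout library was 7.64 times the highest WT library. The values rest on 425, 500 and 443 reads in WT and on 1758, 1450 and 1761 in the knockout, which makes it the member with the most reads in the knockout. Its log2 difference, on log2(value + 1), was 3.03 (SE 0.08), larger than that of all but 0.917% of the genes tested, and in the 19 alternative settings it lay between 2.64 and 3.23 and always passed. The authors' deposited table gives it a log2 fold change of 3.02. The only other listed gene inside Phc3 had no read in any library. The counts are totals over the gene, so they do not show where along Phc3 the footprints lay.

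The paralogs of Phc3 did not share this shift. Phc2 (chromosome 4, 128548495 to 128646674), the next most abundant polyhomeotic gene, had 135, 115 and 112 normalized reads in WT and 196, 199 and 132 in the knockout. Knockout replicate 3 lay within the WT range, so the groups overlapped, and the log2 difference of 0.52 (SE 0.20) did not pass. Without that library the log2 difference was 0.71 and passed. Phc1 (chromosome 6, 122294690 to 122317520) was scarce, at 27.3, 15.3 and 14.3 in WT and 10.7, 14.6 and 24.6 in the knockout, from 42, 25 and 21 reads against 8, 9 and 17. The groups overlapped in part, with knockout replicate 1 below and WT replicate 1 above all libraries of the other genotype. Its log2 difference of -0.20 (SE 0.51) turned to 0.11 after cyclic loess, 0.080 without WT replicate 1 and 0.060 without knockout replicate 1.

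Per kb of gene length, Phc3 took 39.4%, 47.8% and 48.2% of the footprints of the 3 polyhomeotic genes in WT, and 81.9%, 81.3% and 86.2% in the knockout. Phc2 held 45.4% ± 2.02 in WT, about as much as Phc3 at 45.2% ± 4.99, and 15.0% ± 3.42 in the knockout. The share of Phc1 was 9.43% ± 2.97 in WT and 1.88% ± 0.781 in the knockout (SD, n = 3 libraries each). These shares are set by the reads within 1 library and do not depend on the scaling between libraries. They do depend on the length used, 17485 bases for Phc3 and 7064 for Phc2, untranslated parts included. Not divided by length, the WT means were 295 normalized reads for Phc3 and 121 for Phc2.

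**Figure D2:**
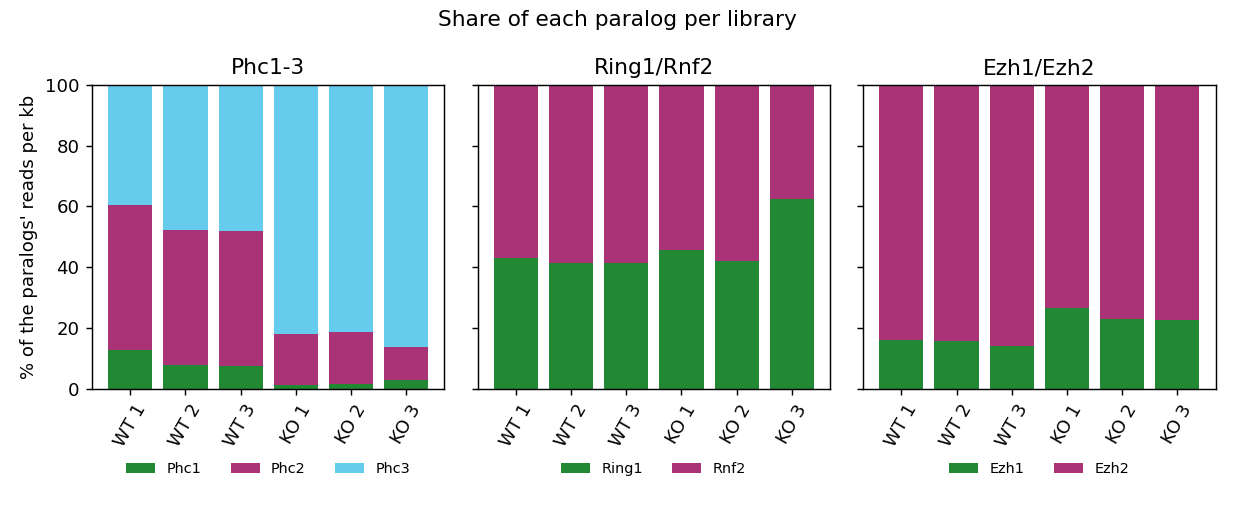
Share of each paralog in the footprints per kb of its family, in percent, for Phc1 to Phc3, Ring1 with Rnf2, and Ezh1 with Ezh2, with 1 bar per library (KO is Mov10 knockout). Phc3 fills over 81% of its family in every knockout library, and Ezh1 takes 22.6% to 26.5% of the Ezh pair in the knockout against 14.1% to 16.1% in WT.

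The catalytic part of PRC1 was not higher in the knockout. Rnf2 (RING1B, chromosome 1, 151333755 to 151376706), the main ubiquitin ligase of PRC1, had 96.7, 95.7 and 90.6 normalized reads in WT and 83.1, 71.2 and 33.3 in the knockout. All knockout libraries lay below all WT libraries, but they spread widely, and the log2 difference of -0.69 (SE 0.34) did not pass. Rnf2 shares 158 bases with Trmt1l on the other strand, whose means were 108 and 143, and it spans Gm36527, with 1.49 and 0. Whether counting used the strand is not given, so reads in the shared stretches cannot be told apart. Ring1 (RING1A, chromosome 17, 34239766 to 34243654), its paralog, had 57.1, 53.4 and 50.4 in WT and 55.0, 40.4 and 43.4 in the knockout. These ranges overlap, and the log2 difference was -0.22 (SE 0.26). Ring1 made up 42.0% ± 0.824 of the pair per kb in WT. In the knockout the share was 45.7%, 42.0% and 62.4%, so that only knockout replicate 3, the library with the least Rnf2, had more of Ring1 than of Rnf2.

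Bmi1 (chromosome 2, 18681829 to 18691440), the partner that stimulates the ligase in canonical PRC1 and is known for stem cell self-renewal, was the member with the most uneven knockout libraries. It had 14.9, 24.5 and 22.5 normalized reads in WT, from 23, 40 and 33 reads. In the knockout it had 24.1 normalized reads (18 reads) in replicate 1 and no read in replicates 2 and 3. A count of 0 allows up to 4.85 and 4.34 normalized reads there, for counting error only, which is below every WT library, whereas replicate 1 matched WT. The log2 difference of -2.86 (SE 1.21) did not pass. It was -4.41 and passed without knockout replicate 1, and with the voom weighting it was -3.13 and also passed. Its size depends on the pseudocount and is no measured fold. The authors' deposited table, whose method is not stated, gives -0.77.

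Among the PRC2 core genes, Suz12 was higher in the knockout and Ezh2 was nearly level. Suz12 (chromosome 11, 79883932 to 79924949), the scaffold on which PRC2 assembles, had 164, 177 and 176 normalized reads in WT and 294, 222 and 269 in the knockout. Every knockout library lay above every WT library, with the lowest at 1.25 times the highest WT value. The log2 difference of 0.59 (SE 0.14) passed with all libraries. It did not pass without WT replicate 1, 2 or 3 (0.56, 0.61 and 0.61), with library totals (0.36) or after thinning to equal depth (0.48), while over all libraries left out in turn its size lay between 0.50 and 0.70. Eed (chromosome 7, 89603862 to 89630191), which binds the methyl mark and activates the enzyme, had 100.0, 126 and 136 in WT and 93.9, 218 and 136 in the knockout. The knockout libraries enclose the WT range, and the log2 difference was 0.23 (SE 0.29), or -0.082 without knockout replicate 2. Eed shares 286 bases with the noncoding gene E230029C05Rik on the other strand, with means of 10.9 and 7.53.

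Ezh2 (chromosome 6, 47507073 to 47572275), the methyltransferase of dividing cells, was the best measured member in WT. It had 358, 369 and 377 normalized reads in WT, from 551, 602 and 554 reads, and 343, 359 and 289 in the knockout. Its log2 difference was -0.16 (SE 0.12), almost equal to the median of all genes, and turned to 0.036 with upper-quartile scaling, while with library totals it was -0.39 and passed as lower. The pseudogene Gm44282 inside Ezh2 had a mean of 1.09 in WT and no knockout read. Ezh1 (chromosome 11, 101081941 to 101117289), the paralog typical of resting cells, had 76.6, 76.7 and 68.8 in WT and 138, 120 and 94.1 in the knockout. All knockout libraries lay above WT, and the log2 difference of 0.64 (SE 0.21) fell short of the threshold. It passed without knockout replicate 3 (0.79), with edgeR (0.68), with upper-quartile scaling (0.84), after cyclic loess (0.72) and among genes with a mean of at least 50 (0.64). Per kb, Ezh2 exceeded Ezh1 by 5.54-fold in WT and by 3.14-fold in the knockout. The share of Ezh1 in the pair went from 15.3% ± 1.09 to 24.0% ± 2.16, without overlap.

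**Figure D3:**
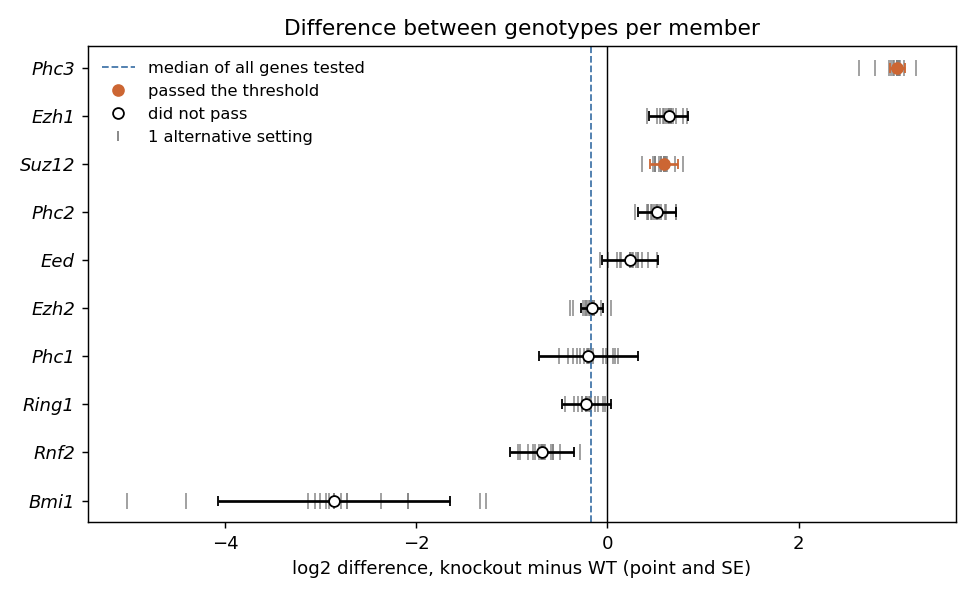
Log2 difference between genotypes (knockout minus WT) for each member, as a point with its SE, with members past the threshold filled in orange and a grey tick for each alternative setting. Phc3 lies near 3 in all settings, Bmi1 spreads most, and Ezh2, Phc1 and Eed have ticks on both sides of 0.

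The order of levels, in normalized reads per kb of gene length, changed most for Phc3 (rank 6 in WT, 1 in the knockout). Rnf2 went from rank 4 to 7, Ezh2 from 1 to 3 and Ezh1 from 8 to 6. In the knockout the ranges of Rnf2 and Ezh1 overlapped, as did those of Suz12 and Ezh2. In WT, Ezh2 led with 55.1 ± 1.49, followed by Suz12 at 34.8 ± 1.41 and Eed at 31.5 ± 4.83, whose ranges overlap, and by Rnf2 at 22.9 ± 0.794. Phc2 (17.1 ± 1.79), Phc3 (16.9 ± 0.949) and Ring1 (16.5 ± 1.04) could not be ordered beyond their spread. Ezh1 lay below them at 9.95 ± 0.608, and Bmi1 (5.20 ± 1.27) and Phc1 (3.58 ± 1.36) were lowest, with overlapping ranges. By this measure Ezh2, Suz12 and Eed of PRC2 lay above every PRC1 member in WT. Not divided by length, Phc3 (295 normalized reads) lay above Suz12 (172) and Eed (121), so the order rests on the length used.

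In the knockout, Phc3 led with 138 ± 6.50 per kb, 2.61 times the next member, after rank 6 in WT. Suz12 (52.9 ± 7.41), Ezh2 (49.5 ± 5.47) and Eed (39.03 ± 16.5) followed, each overlapping the next. Phc2 came next at 24.8 ± 5.37, overlapping Eed, and then Ezh1 (15.8 ± 2.98), Rnf2 (15.2 ± 6.31) and Ring1 (14.3 ± 2.37), which overlapped. Phc1 (3.14 ± 1.35) and Bmi1 (2.02 ± 3.51) again were lowest. Gene length here is that of the deposited table and includes untranslated parts, where few footprints lie, so the order could differ per coding length.

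Phc3 also set the summed level of the group. The 10 members together came to 1338 ± 28.8 normalized reads in WT, against 3585 ± 13.4 in the knockout, of which Phc3, a long gene, supplied 22.0% and 67.4%. Per kb of gene length the sum in the knockout was 1.66 times that in WT, and Phc3 made up 7.90% of it in WT and 38.96% in the knockout. Without Phc3 the other 9 members had 1030, 1053 and 1047 in WT and 1238, 1244 and 1022 in the knockout, which overlap. The other 5 PRC1 members summed to 308 ± 21.1 in WT and 309 ± 69.3 in the knockout, and the 4 PRC2 members to 735 ± 32.0 and 859 ± 65.7. The PRC2 sums did not overlap, at 699, 749 and 758 in WT and 869, 919 and 789 in the knockout.

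The knockout libraries disagreed with each other more than the WT libraries, for the members as for most genes. The coefficient of variation (CV, the SD over the mean) was larger in the knockout for 9 of 10 members, all but Phc3, and for 86.2% of the 15849 genes with reads in both genotypes. Among genes with a mean of at least 50, the median CV was 21.5% in the knockout and 7.61% in WT. Spearman correlations were 0.867 to 0.869 between knockout libraries and 0.978 to 0.979 between WT libraries. Between the genotypes they were 0.858 to 0.866, hardly below those within the knockout. The cause was not tested. Fewer reads widen counting error, and its size can be set beside the spread. In the knockout the CV exceeded 2 times that of counting alone for 4 members: Bmi1 (173% against 40.8%), Eed (42.4% against 10.02%), Rnf2 (41.6% against 15.2%) and Phc2 (21.6% against 9.13%). In WT this held for Eed (15.3% against 7.33%) and Phc1 (38.0% against 18.5%). The WT CV lay below that of counting alone for Rnf2 (3.47% against 8.28%), Ezh2 (2.70% against 4.19%) and Suz12 (4.04% against 6.13%). It also did for Ezh1 (6.11% against 9.34%) and Ring1 (6.27% against 11.0%). In the knockout only Ring1 lay below it (16.6% against 17.7%). Phc3 had a CV of 4.71% in the knockout and 5.63% in WT, where counting gives 2.46% and 4.68%.

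**Figure D4:**
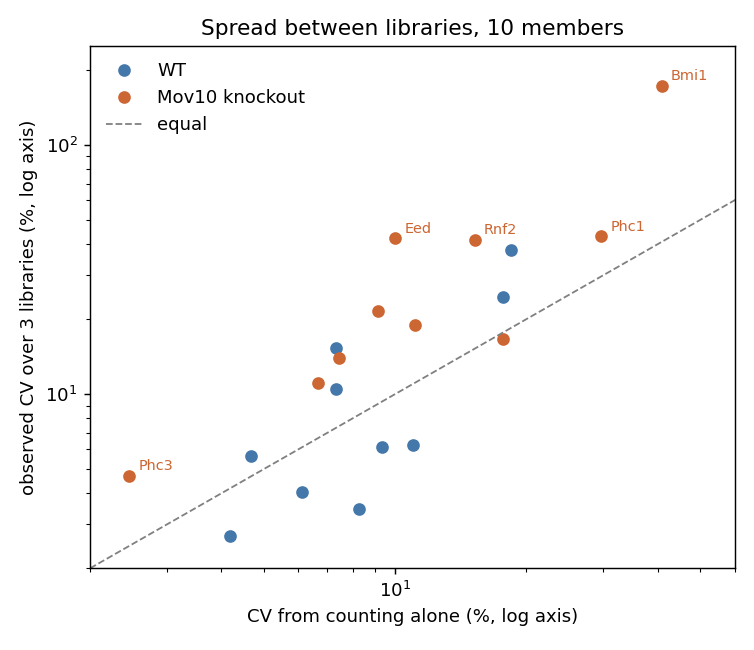
Observed CV over 3 libraries against the CV that counting alone gives, both in percent on log axes, with 1 point per member and genotype. Most knockout points lie above the dashed line of equality, with Bmi1 at 173% and Eed and Rnf2 near 42%, and Phc3 has the smallest knockout CV at 4.71%.

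The remaining Polycomb genes, given from a list of 41 further subunits and partners, changed in both directions. This list and those below were chosen with earlier results of these data known, so their counts beside all genes are a description. Of the 39 tested, 3 passed as higher (7.69%) and 9 as lower (23.1%), where 10.3% and 10.9% of all genes did, and their median log2 difference was -0.43, against -0.17 over all genes. Among the other PRC1 genes 1 of 21 rose and 3 fell, which is 19.05% of them and near the 21.2% of all genes. Bcorl1, a corepressor of a variant PRC1, rose 5.32-fold, from 80.5 ± 7.35 to 428 ± 160 (limma adjusted p = 0.000437). E2f6, a repressor that brings variant PRC1 to DNA, fell from 110 ± 3.66 to 28.6 ± 7.35 (limma adjusted p = 0.00198). Pcgf5, which takes the place of Bmi1 in variant complexes, fell 2.07-fold, and L3mbtl2, a methyl-lysine reader, 1.97-fold. Without WT replicate 1, 2 or 3, neither gene passed (lowest limma adjusted p = 0.0645 for Pcgf5 and 0.0529 for L3mbtl2). None of the 5 Cbx genes, whose chromodomains read the PRC2 mark, passed.

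Among the other PRC2 genes 2 of 9 rose (22.2%) and 1 fell (11.1%), against 10.3% and 10.9% of all genes. Rbbp4 and Rbbp7, the histone-binding WD40 subunits that also serve other chromatin complexes, rose 2.81-fold (691 ± 51.3 to 1938 ± 81.1, limma adjusted p = 1.21e-05) and 1.66-fold (690 ± 60.9 to 1149 ± 165, limma adjusted p = 0.00355). After cyclic loess Rbbp7 did not pass (limma adjusted p = 0.0811). Mtf2, which guides PRC2 to CpG-rich DNA, fell 2.47-fold from 149 ± 5.88 to 60.4 ± 6.36 (limma adjusted p = 0.00191). Jarid2, another targeting subunit, was at 184 ± 5.75 and 149.9 ± 30.7 and did not pass.

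The deubiquitinase PR-DUB removes the ubiquitin that PRC1 places. Of 9 genes of this complex tested, 5 fell (55.6%, against 10.9% of all genes) and 0 rose with limma, and the counts were the same with edgeR. Without knockout replicate 2, 10 could be tested, 6 passed as lower and Asxl3, a paralog of Asxl1 with few reads that was otherwise not called, passed as higher (limma adjusted p = 0.0251). Mbd5 fell 2.60-fold, Mbd6 2.81-fold, Hcfc1 1.77-fold and Ogt, which links sugar to nuclear proteins, 1.38-fold. Bap1, the enzyme itself, fell 1.90-fold from 97.6 ± 7.61 to 51.3 ± 13.04 (limma adjusted p = 0.0324), and is named because it completes the count. Asxl1, its activating partner, had 499.8 ± 8.01 and 525 ± 81.2 and did not pass. Upper-quartile scaling left 3 of the 5, without Bap1 and Ogt. Without WT replicate 1, 2 or 3 in turn 2, 1 and 1 of these genes passed as lower, and Bap1 passed in none of these fits (limma adjusted p = 0.102, 0.146 and 0.141).

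**Figure D5:**
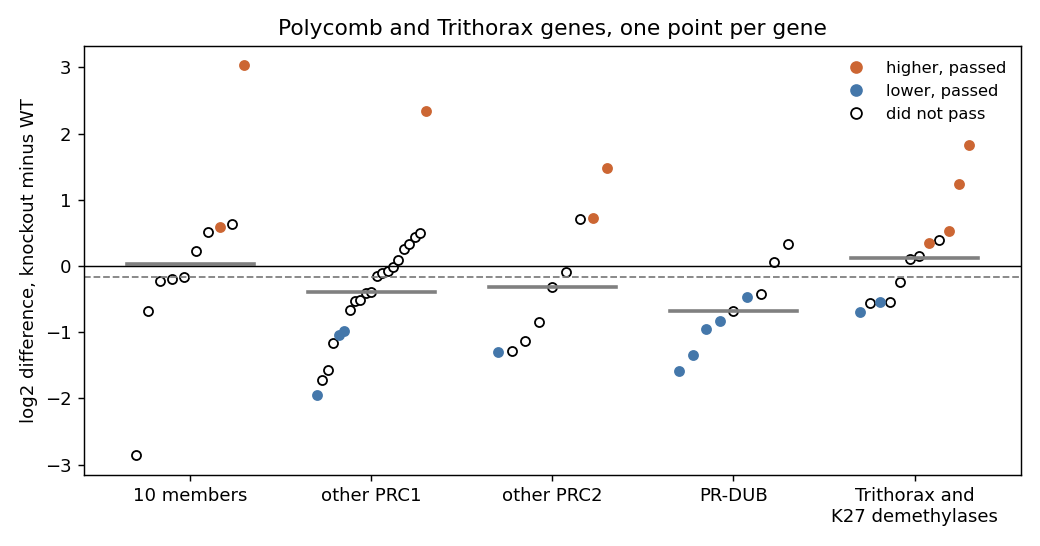
Log2 difference between genotypes (knockout minus WT) for each tested gene of 5 lists, with genes past the threshold filled (orange higher, blue lower), list medians as grey bars and the median of all genes as a dashed line. The PR-DUB genes past the threshold are all lower, and Phc3 is the highest point of the plot at 3.03.

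Genes that oppose Polycomb were mixed, with 4 of 12 higher (33.3%) and 2 lower (16.7%), against 10.3% and 10.9% of all genes. The balance turned to 2 higher and 3 lower with TMM scaling and with library totals, and to 3 higher and 4 lower without knockout replicate 3. Kdm6a, which erases the PRC2 mark, rose 3.60-fold from 99.4 ± 5.87 to 358 ± 55.5 (limma adjusted p = 0.000135), and Rbbp5, a core subunit of the Trithorax methyltransferases, 2.37-fold. Kmt2d and Ash1l, both Trithorax group methyltransferases, fell 1.61-fold and 1.46-fold. Kmt2c and Kdm6b, named because they complete the count, rose 1.28-fold and 1.45-fold. Without WT replicate 1, 2 or 3 neither Kmt2c (limma adjusted p = 0.091, 0.106 and 0.0976) nor Kdm6b (0.146, 0.147 and 0.147) passed, and Ash1l did not pass without WT replicate 2 or 3 (0.054 and 0.0521). Kmt2c had a log2 difference of -0.028 after cyclic loess. Kdm6b, the weakest call of the list, also failed with the replicate block (limma adjusted p = 0.116), with TMM scaling (0.0799), with library totals (0.202) and with DESeq2 (0.0777).

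Most of the genes listed as known Polycomb targets had few reads in both genotypes. Cdkn2c, a cell cycle inhibitor, had the most, with means of 37.8 ± 8.16 (WT) and 39.03 ± 6.94 (knockout), and Hoxa9, a homeobox gene of early progenitors, had 17.4 ± 4.57 and 8.56 ± 7.38, and neither passed. Of 20 such genes 9 could be tested, and their summed level was 83.5 to 103 normalized reads in WT and 69.5 to 105 in the knockout. Hoxb4, Hmga2 and Hoxa5 had 4.97 ± 1.89, 4.73 ± 2.69 and 3.41 ± 1.30 normalized reads in WT and no read in the knockout, where 3 reads per library come to 4.41, so Hoxb4 was at least 1.13-fold and Hmga2 at least 1.07-fold lower and Hoxa5 has no fold. Cdkn1a, a cell cycle inhibitor, had 5.86 ± 0.952 and 0.539 ± 0.934. These 4 (44.4% of the 9 tested, against 10.9% of all genes) passed as lower with all libraries (limma). Of the list 0 passed without WT replicate 1, 2 or 3, or with edgeR, which tested 3 of its genes. Igf2bp2, an RNA-binding protein, passed as higher with DESeq2 (adjusted p = 0.0346, where 0 were lower) and without knockout replicate 3 (limma adjusted p = 0.0247). The list median was -1.31, and -0.17 with the 3 genes without knockout reads set at their bound.

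Genes of dividing cells, with which Ezh2 is known to rise and fall, were more often higher, 8 of 16 against 2 lower (Aurkb and Mcm7). In the same fit 10.3% of all genes passed as higher and 10.9% as lower. The lower share of this list was thus near that of all genes, and only its higher share lay well above. Top2a rose 1.68-fold, Mki67 1.47-fold and Mcm4 1.85-fold, and Aurkb fell 2.28-fold. After cyclic loess 1 of 16 was higher and 3 were lower, and Mki67 had a log2 difference of -0.15. Under library totals the split was 4 higher to 3 lower. Without WT replicate 1, 2 or 3 in turn 4, 4 and 3 were higher. Ezh2, at a log2 difference of -0.16, lay below the list median of 0.33.

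The genes whose profile over the 6 libraries lay closest to that of Phc3 were Rpl36-ps4, H3c11, Ncbp2, Cpne7 and Spock1, by Euclidean distance between centred log2 values (0.24 to 0.45), among protein-coding genes. H3c11, a core histone gene with near-identical copies that can share its reads, had 34.9 ± 5.89 in WT and 290.1 ± 10.8 in the knockout. Ncbp2, a subunit of the nuclear cap-binding complex, had 99.0 ± 11.8 and 763 ± 144. Rpl36-ps4, Cpne7 and Spock1 rest on few reads, with WT means of 0, 1.94 and 1.07 normalized reads. With 6 libraries in 2 groups, such closeness mostly says that a gene differs between the genotypes by a similar factor.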

How the data were processed

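The deposited table holds signal values: reads per gene, scaled by the authors with a size factor for each library. Dividing by the value of 1 read gave whole reads (to 0.05) for 99.98% of entries above 0, and edgeR placed 3213 of 10891 genes past the threshold on them. The build is GRCm39 per the submitters' processing notes; the sources used here do not give the aligner, counter, annotation or use of strand. Gene lengths in the other column, the log2 fold changes, and the p-values are as deposited by the authors, with an unstated test. Rps29, Camp, Igkc, Ssr4 and Rpl27 were left out because their values are not whole multiples of that value.

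Genes with a mean of at least 1 were tested with limma 3.58.1 (R 4.3.3) on log2(value + 1), with a trended variance prior and no covariate, over all genes. Intervals and floors of 3 reads cover counting error only, since reads carry no molecular identifiers. Alternatives were edgeR 4.0.16 and DESeq2 1.42.0 on recovered reads, limma-voom, 4 scalings, filters, a pseudocount of 0.1, thinning, a replicate block and each library left out. Levels per length were planned per coding length and use the table's gene length, since coding lengths were not used here. No base sequence is printed, since no table of coding or protein sequence was used here. The procedure was tested on simulated data with the same spread beyond counting in both genotypes. The wider spread of the knockout libraries was not covered by that test. Figures used matplotlib 3.10.9.

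Members and lists were chosen with earlier results of these data known. Named genes are the 10 members, Mov10, up to 4 genes past the threshold with the smallest p per list plus up to 2 of the opposite direction, and the 5 genes closest in profile to the member that differed most. Genes completing a count of 5 or fewer, Asxl1, Asxl3, Jarid2, Cdkn2c, Hoxa9, Igf2bp2, Hbb-bs and Kit were named after their values were seen. So were Myb, Flt3, Procr, Ly6a, Alas2, Cd79b, Vpreb1, Ebf1 and Ms4a1. Other marker lists were megakaryocyte (1 of 5 tested higher), eosinophil and mast (3 of 6 higher), T and NK (1 of 8 lower), and stroma and endothelium (1 higher and 1 lower of 5). Over all genes 10.3% passed as higher and 10.9% as lower.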

Additional observations from a re-analysis of the deposited data

How the results depend on the processing

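Phc3 passed in all 19 alternatives. The count of 2 members past the threshold was 4 with upper-quartile scaling, 1 after thinning, 1 at an adjusted p under 0.01, and 1 to 4 when each library was left out. The count of all genes was 3628 of 17114, 3575 of 17079 with upper-quartile scaling, 1427 at an adjusted p under 0.01, and 1239 to 4585 without each library. The 12 calls among the other Polycomb genes became 6 at that threshold and 6 to 19 without each library. The higher genes made up 48.4% of all calls, 62.9% after upper-quartile scaling and 30.8% under library totals, where the median of all genes was -0.17, 0.01 and -0.39. The summed level of the members per kb was 1.66 times WT, and 1.42 with library totals. Reversed were Ezh2 (0.036, upper-quartile scaling), Phc1 (0.11 after cyclic loess, -0.51 to 0.080 without each library), Eed (-0.082 to 0.52 without each library), Mki67 (-0.15) and Kmt2c (-0.028), both after cyclic loess. The cause was not tested. Same-numbered libraries did not deviate together (correlations -0.029 to -0.0055), and with a replicate block 2 members, 14 other Polycomb genes and 3245 genes in all passed. Few reads limit Phc1 and Bmi1 most. Coding length was not run.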
